A study of Homo sapiens with 6 samples.

Results

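The genes described here encode proteins of cellular iron uptake, iron storage and their control. They are 10 genes taken by name (TFRC, TFR2, STEAP3, SLC11A2, PCBP1, FTH1, FTL, NCOA4, ACO1 and IREB2), and all 10 were found among the 12486 genes of the expression table. The RNA-seq libraries came from K562, a human line from chronic myeloid leukemia that carries the Bcr-Abl fusion and has erythroid features. Cells carried a stable lentiviral shRNA, either the control sh-luc, directed at luciferase, or sh-IUR1, directed at lncRNA-IUR1, a long noncoding RNA that the sample labels call lncRNA-up91. Each group had 3 libraries (unnumbered, r1 and r2) from cells that the methods describe as independent groups, and 1 shRNA sequence stood for the knockdown. Levels are given in FPKM, which scales fragments to transcript length and library size. Knockdown of the target was not examined, because the level of lncRNA-IUR1 was not analysed here.

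Most cells take up iron bound to transferrin through the transferrin receptor, reduce it in the endosome, move it into the cytosol and keep what is not used inside ferritin, a shell of heavy and light chains. The iron regulatory proteins IRP1 and IRP2 bind hairpins called iron-responsive elements when iron is scarce, which protects the mRNA of the transferrin receptor from decay and blocks the translation of ferritin mRNA. Erythroid cells take up large amounts of iron for heme. RNA-seq reads the mRNA side of this system only, so ferritin protein, receptor protein and iron itself were not measured.

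The hairpins are shown because they are sequences through which the regulators act on mRNAs of this system. The pattern searched was a C, 5 bases, the loop CAGTGN and 5 bases that pair with the first 5, with G-T pairs allowed, read on the transcript strand. In the canonical GENCODE release 44 transcripts (GRCh38) it occurred 4 times in the 3′ UTR of TFRC. It occurred once in the 5′ UTR of FTH1 and once in that of FTL. The matches of TFRC and FTL are printed 5′ to 3′ with 6 bases on either side, with the bulged C and the loop in capitals.
TFRC match 1: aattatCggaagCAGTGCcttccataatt
TFRC match 2: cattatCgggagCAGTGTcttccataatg
TFRC match 3: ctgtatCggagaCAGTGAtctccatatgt
TFRC match 4: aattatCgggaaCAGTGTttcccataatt
FTL: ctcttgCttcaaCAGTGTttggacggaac

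The TFRC matches lie in exon 19 on the minus strand at chr3:196050979-196051007, chr3:196050575-196050603, chr3:196050510-196050538 and chr3:196050463-196050491. The FTL match lies in exon 1 at chr19:48965335-48965363 on the plus strand. Of 20457 canonical coding transcripts, 263 (1.29%) held a match, 142 (0.69%) held one outside the coding part, and TFRC was the 1 transcript with 4 or more. The canonical transcripts of TFR2, STEAP3, SLC11A2, PCBP1, NCOA4, ACO1 and IREB2 held 0 matches, which says only that these letters with this pairing were not in those transcripts. A match is a description of sequence and not a measurement of binding.

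**Figure D1:**
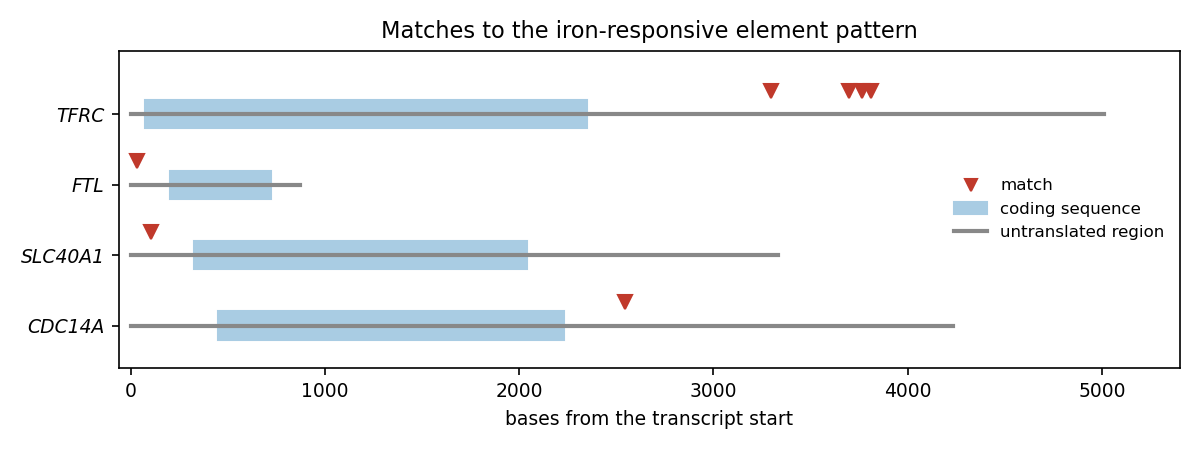
Position of the matches along the canonical transcripts of 4 genes. The x axis is the distance in bases from the transcript start, bars are coding sequence, lines are untranslated regions and triangles are matches. TFRC has 4 matches after its coding sequence and CDC14A has 1, whereas the match of FTL and SLC40A1 lies before it.

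The 10 genes spanned a wide range of mRNA levels, with means above the median gene of the libraries, which was at 9.85 to 10.39 FPKM. Ferritin stood at the top, with FTL at a mean of 3596 FPKM and FTH1 at 2145 FPKM over the 6 libraries, followed by PCBP1 at 303.7 and TFRC at 128 FPKM. NCOA4 (60.7 FPKM) and TFR2 (58.2 FPKM) came next with overlapping libraries. ACO1 followed at 24.0 FPKM, and SLC11A2 (13.9), IREB2 (12.4) and STEAP3 (11.9) formed a last group whose libraries overlapped each other in turn. The levels of FTH1, FTL and NCOA4 are uncertain because RefSeq lists 27, 20 and 4 pseudogenes of them, 0 of which are among the genes of the table, and how reads shared with these copies were counted is not given in the sources used here. The number of fragments behind a value is unknown, so no interval from counting was computed.

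Between sh-IUR1 and sh-luc, limma called 0 of the 10 genes at an adjusted p-value under 0.05, and 0 (0%) of the 12276 genes tested. Unadjusted p-values were under 0.05 for 0 of the 10 genes and for 325 (2.65%) of all genes. The groups did not overlap for 1 of the 10, NCOA4, which was higher in sh-IUR1, against 868 (7.07%) of all genes in either direction and 496 (4.04%) higher in sh-IUR1. The log2 fold change was above 0 for 6 genes and below 0 for 4, with a median of 0.013 (−0.0025 with median-ratio scaling) beside 0.019 for all genes tested. This median of the 10 was 0.00077 with quantile normalization, and ran from 0.0042 (without sh-luc r2) to 0.021 (without sh-IUR1 r1) with a library left out. Adjusted p-values of the 10 ran from 0.930 to 0.983. In bulk RNA, fewer cells that express a gene and less of its RNA per cell cannot be told apart.

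**Figure D2:**
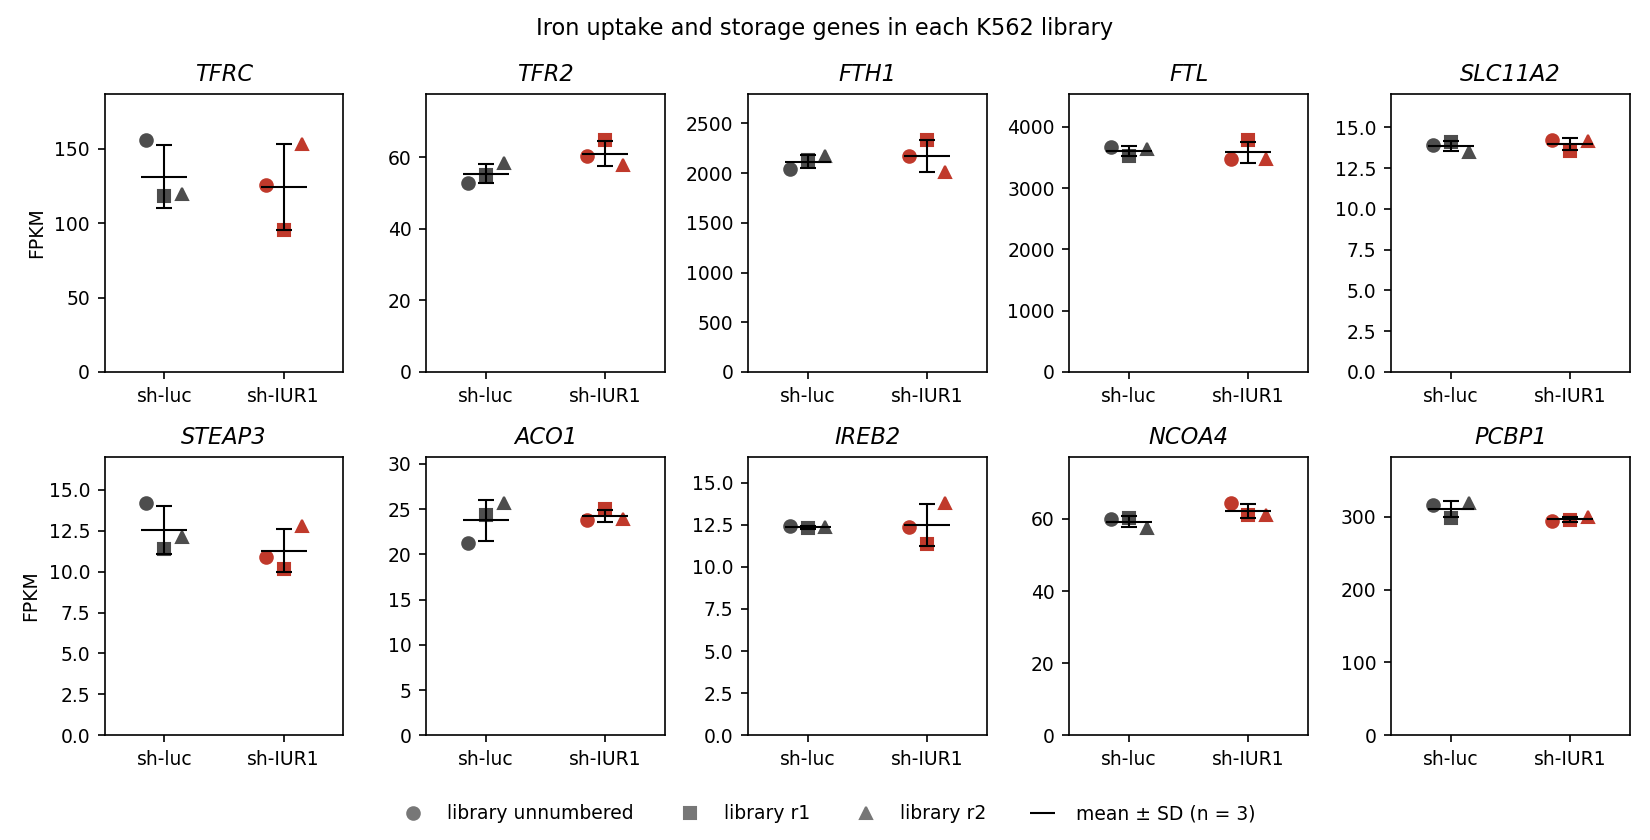
FPKM of each gene in each library. Grey symbols are sh-luc and red symbols sh-IUR1, the symbol shape gives the library label, and horizontal bars with whiskers are the mean ± SD of 3 libraries. The groups overlap for every gene except NCOA4, and TFRC has the widest relative spread.

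The unnumbered sh-luc library stood apart from the rest in a list of 25 measured genes of the integrated stress response, a program started by phosphorylation of eIF2 and carried by ATF4. Their mean log2(FPKM + 1) was 5.08 in that library, 6.05 in sh-luc r1 and 5.87 in sh-luc r2, against 6.09, 6.23 and 5.76 in sh-IUR1 unnumbered, r1 and r2. DDIT4, the most abundant gene of the list, was at 169 FPKM there and between 479 and 620.4 FPKM in the other 5 libraries. All 25 genes had a log2 fold change above 0, 0 passed the threshold in limma, and 0 had an unadjusted p-value under 0.05. The median was 0.34, with 0.55 without sh-luc r1, 0.52 without sh-IUR1 r2 and 0.055 without the unnumbered sh-luc library. Its part in the results for the iron genes was not tested, and the log2 fold change without it is given beside that of each of the 10 genes. Without it, 0 of the 10 genes passed the threshold in limma, with 221 of all genes at an unadjusted p-value under 0.05, and no gene but NCOA4 was without overlap among the 10, against 12.6% of all genes. A gene without overlap in 6 libraries stays so when a library is left out, so this count is no sign of stability.

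TFRC encodes transferrin receptor 1, the main port of entry for transferrin-bound iron. It was at 156 (unnumbered), 119 (r1) and 119 (r2) FPKM in sh-luc, a mean of 131 ± 21.4 (SD, n = 3), and at 125, 95.3 and 153 FPKM in sh-IUR1, a mean of 125 ± 28.9 (SD, n = 3). A single library of each group was high (sh-luc unnumbered and sh-IUR1 r2), sh-IUR1 r1 was the lowest, and the groups overlapped. With these values the log2 fold change was −0.09 (SE 0.16, 95% interval −0.44 to 0.26, limma adjusted p = 0.949), and the two-sided exact permutation p was 0.9. The sign rested on single libraries, since the log2 fold change was 0.039 without sh-luc unnumbered, 0.088 without sh-IUR1 r1 and −0.25 without sh-IUR1 r2. The coefficient of variation over the 6 libraries was 18%, larger than that of 97.5% of the 6314 genes averaging at least 10 FPKM (median 6.35%).

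TFR2 encodes transferrin receptor 2, a relative that binds transferrin less tightly and serves in iron sensing. It was at 52.8, 55.2 and 58.3 FPKM in sh-luc (unnumbered, r1 and r2; mean 55.4 ± 2.75 SD, n = 3) and at 60.3, 64.9 and 57.9 FPKM in sh-IUR1 (mean 61.0 ± 3.53 SD, n = 3). Both sh-IUR1 unnumbered and r1 lay above every control, and sh-IUR1 r2 fell just under the highest control, sh-luc r2. Expressed as a log2 fold change the difference was 0.14 (SE 0.066, 95% interval −0.012 to 0.28; limma p = 0.0676, adjusted p = 0.930), and the exact permutation p was 0.2. It was 0.10 without sh-luc unnumbered and 0.092 without sh-IUR1 r1.

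STEAP3 encodes the reductase that turns ferric into ferrous iron in the endosome of erythroid cells. It was at 14.2, 11.4 and 12.1 FPKM in sh-luc (unnumbered, r1 and r2; mean 12.6 ± 1.45 SD, n = 3) and at 10.9, 10.2 and 12.8 FPKM in sh-IUR1 (mean 11.3 ± 1.34 SD, n = 3). As for TFRC, the highest library was sh-luc unnumbered, the next sh-IUR1 r2 and the lowest sh-IUR1 r1, so that the groups overlapped. Its log2 fold change was −0.14 (SE 0.10, 95% interval −0.37 to 0.089, limma adjusted p = 0.930), and it was −0.058 without sh-luc unnumbered, −0.077 without sh-IUR1 r1 and −0.23 without sh-IUR1 r2. SLC11A2 encodes DMT1, which carries ferrous iron across the endosomal membrane. It was at 13.9, 14.1 and 13.5 FPKM in sh-luc and at 14.2, 13.6 and 14.2 FPKM in sh-IUR1, with fully overlapping groups. Its coefficient of variation of 2.27% was larger than that of only 2.58% of the genes averaging at least 10 FPKM. For SLC11A2 the log2 fold change was 0.014 (95% interval −0.14 to 0.16, limma adjusted p = 0.976), and it was 0.017 without sh-luc unnumbered, −0.0025 without sh-luc r2, −0.0014 with median-ratio scaling and −0.011 with quantile normalization. The antisense partner that RefSeq lists for STEAP3, and likewise for PCBP1, could add reads if counting ignored strand, which is not given in the sources used here.

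PCBP1 encodes an RNA-binding protein that also acts as an iron chaperone and delivers iron to ferritin. It was at 316, 298 and 319 FPKM in sh-luc (unnumbered, r1 and r2; mean 311 ± 11.3 SD, n = 3) and at 294, 295 and 300.4 FPKM in sh-IUR1 (mean 296 ± 3.48 SD, n = 3). The sh-IUR1 libraries lay close together, below sh-luc unnumbered and r2, and sh-luc r1 fell among them. For PCBP1 the log2 fold change was −0.068 (SE 0.053, 95% interval −0.19 to 0.051, limma adjusted p = 0.930), the exact permutation p was 0.2, and the log2 fold change without sh-luc unnumbered was −0.056.

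FTH1 encodes the ferritin heavy chain, which oxidizes iron as it enters the shell, and FTL the light chain, which helps the mineral core to form. FTH1 was at 2040.1, 2135 and 2176 FPKM in sh-luc (unnumbered, r1 and r2; mean 2117 ± 69.8 SD, n = 3) and at 2176, 2334 and 2007 FPKM in sh-IUR1 (mean 2173 ± 163 SD, n = 3). FTL was at 3669.8, 3522 and 3639.8 FPKM in sh-luc (mean 3610 ± 78.4 SD, n = 3) and at 3483, 3787 and 3475 FPKM in sh-IUR1 (mean 3582 ± 178 SD, n = 3). For both chains sh-IUR1 held the highest library (r1) and the lowest (r2), with the controls between them. The log2 fold change of FTH1 was 0.035 (SE 0.068, 95% interval −0.12 to 0.19, limma adjusted p = 0.954) and that of FTL was −0.012 (SE 0.06, 95% interval −0.15 to 0.12, limma adjusted p = 0.976). Their signs rested on single libraries: FTH1 was at −0.018 without sh-IUR1 r1, and FTL at 0.007 without sh-IUR1 unnumbered and 0.0087 without sh-IUR1 r2. Without sh-luc unnumbered FTH1 was at 0.0087 and FTL at −0.00059. The ratio of FTL to FTH1, both per length, was 1.80, 1.65 and 1.67 in the controls, whereas the sh-IUR1 libraries had 1.60, 1.62 and 1.73, a range of 1.12-fold with overlapping groups (exact permutation p = 0.5).

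NCOA4 encodes the receptor that carries ferritin to the lysosome for release of its iron. It was at 59.9, 60.2 and 57.4 FPKM in sh-luc (unnumbered, r1 and r2; mean 59.2 ± 1.52 SD, n = 3) and at 64.3, 61.1 and 61.0 FPKM in sh-IUR1 (mean 62.2 ± 1.89 SD, n = 3). Every sh-IUR1 library lay above every control, although the gap between sh-IUR1 r2 and sh-luc r1 was smaller than either SD. With 3 libraries in each group the exact permutation p was 0.1, the lowest value that this design can reach. Its log2 fold change was 0.07 (SE 0.057, 95% interval −0.056 to 0.20, limma adjusted p = 0.930), and it was 0.079 without sh-luc unnumbered, 0.049 without sh-luc r2 and 0.046 without sh-IUR1 unnumbered.

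ACO1 encodes IRP1, an aconitase that binds iron-responsive elements when it lacks its iron-sulfur cluster, and IREB2 encodes IRP2, which is degraded when iron is plentiful. ACO1 was at 21.3, 24.4 and 25.7 FPKM in sh-luc (unnumbered, r1 and r2; mean 23.8 ± 2.26 SD, n = 3) and at 23.8, 25.1 and 23.9 FPKM in sh-IUR1 (mean 24.3 ± 0.706 SD, n = 3). The low control was the unnumbered library, and without it the log2 fold change went from 0.031 (SE 0.078, 95% interval −0.14 to 0.21, limma adjusted p = 0.961) to −0.044. IREB2 was at 12.4, 12.3 and 12.3 FPKM in sh-luc (mean 12.3 ± 0.0755 SD, n = 3) and at 12.4, 11.3 and 13.8 FPKM in sh-IUR1 (mean 12.5 ± 1.23 SD, n = 3). The controls nearly coincided, and the sh-IUR1 libraries lay on both sides of them, with r1 low and r2 high. The log2 fold change of IREB2 was 0.011 (SE 0.082, 95% interval −0.17 to 0.19, limma adjusted p = 0.983), and it was 0.016 without sh-luc unnumbered, −0.056 without sh-IUR1 r2, −0.0036 with median-ratio scaling and −0.014 with quantile normalization. The ratio of ACO1 to IREB2 was 1.71, 1.99 and 2.08 in the controls, whereas the sh-IUR1 libraries had 1.92, 2.21 and 1.73 (exact permutation p = 0.9).

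**Figure D3:**
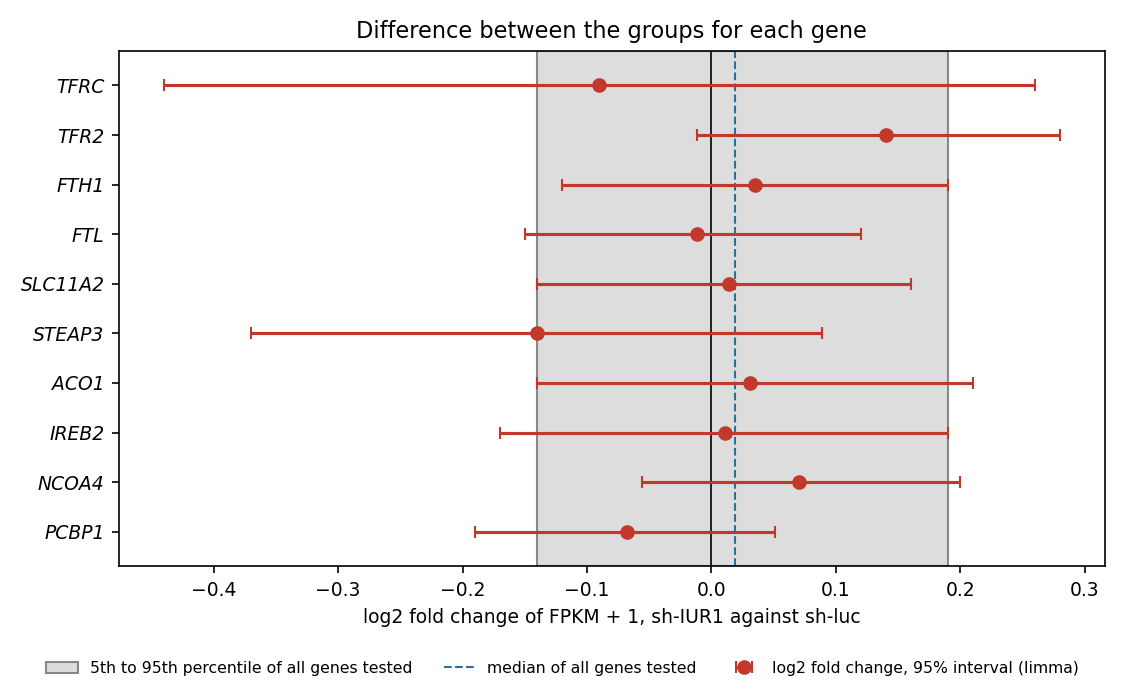
Log2 fold change of FPKM + 1 (x axis) of each gene in sh-IUR1 against sh-luc, with its 95% interval from limma. The grey band holds the 5th to 95th percentile of all genes tested (−0.14 to 0.19) and the dashed line is their median (0.019). All 10 intervals include 0, and those of TFRC and STEAP3 are the widest.

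The intervals bound what could have been missed, since a p that misses the threshold does not show that levels were equal. For FTH1, FTL, SLC11A2, NCOA4, PCBP1 and IREB2 they stayed within 0.20 of 0 on the log2 scale, and for TFRC they reached down to −0.44.

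Several genes deviated in the same libraries. Library sh-IUR1 r1 held the highest or lowest value of 6 of the 10 genes: TFRC, STEAP3 and IREB2 were lowest there, and FTH1, FTL and TFR2 highest. Library sh-IUR1 r2 went the other way for TFRC, STEAP3, IREB2, FTH1 and FTL, although both libraries carry the same shRNA. The ratio of TFRC to FTH1 was 0.0765, 0.0556 and 0.0548 in sh-luc (unnumbered, r1 and r2) and 0.0576, 0.0408 and 0.0762 in sh-IUR1, a 1.87-fold range with overlapping groups (exact permutation p = 0.9). The ratio of TFRC to TFR2 was 2.95, 2.15 and 2.05 in the controls, whereas the sh-IUR1 libraries had 2.08, 1.47 and 2.64 (exact permutation p = 0.5). The libraries with a high TFRC were again sh-luc unnumbered and sh-IUR1 r2 in both ratios, and these were also the libraries with the lowest mean level of the stress list. The part of that list in these ratios was not tested.

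**Figure D4:**
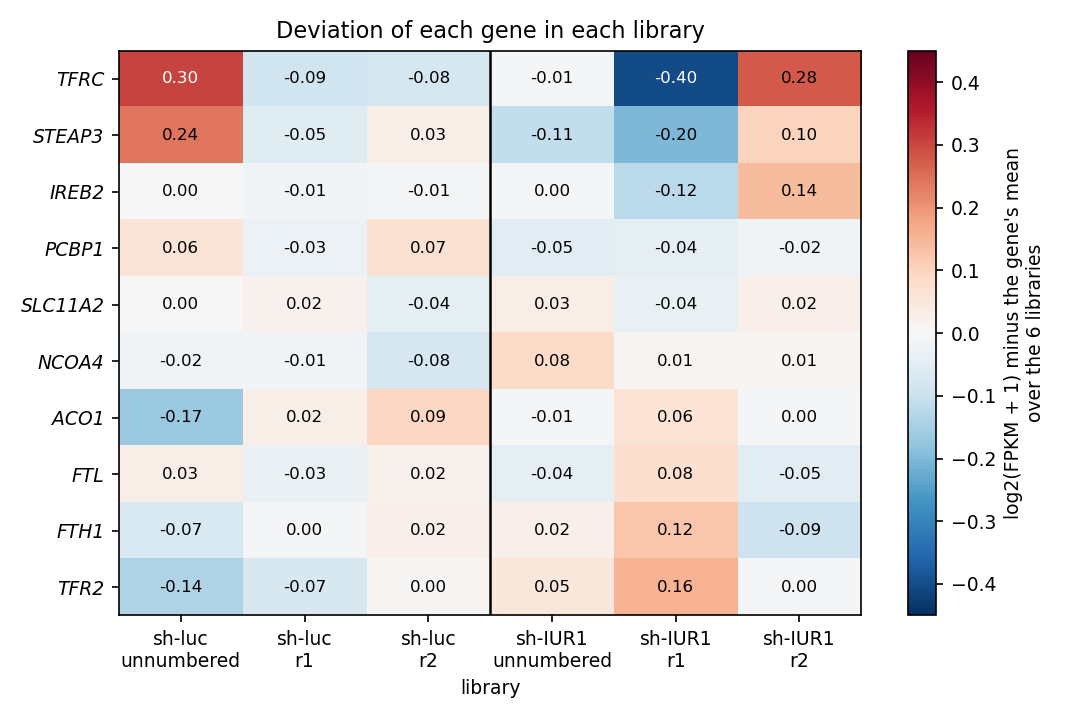
Deviation of each gene's log2(FPKM + 1) in each library (columns) from the gene's own mean over the 6 libraries, with red above and blue below the mean and the value written in each cell. Genes are ordered by their deviation in sh-IUR1 r1. TFRC is at 0.30 in sh-luc unnumbered and 0.28 in sh-IUR1 r2 but at −0.40 in sh-IUR1 r1, where FTH1 is at 0.12.

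Over the 6 libraries, TFRC and FTH1 went in opposite directions, with Pearson's r = −0.968 (exact permutation p = 0.0153, adjusted p = 0.271 over the 45 pairs of the 10 genes) and Spearman's rho = −0.771 (exact permutation p = 0.103, adjusted p = 0.385). Without the 2 libraries farthest from the median of TFRC, r was −0.921. TFRC and STEAP3 had r = 0.896 (exact permutation p = 0.025, adjusted p = 0.271) and rho = 0.829 (exact permutation p = 0.0583, adjusted p = 0.385), with r = 0.674 without the 2 farthest libraries. TFRC and IREB2 had r = 0.823 (exact permutation p = 0.0792, adjusted p = 0.370) and rho = 0.943 (exact permutation p = 0.0167, adjusted p = 0.375), with r = 0.986 without those libraries. NCOA4 and PCBP1 had the smallest p of r, with r = −0.802 (exact permutation p = 0.0111, adjusted p = 0.271) and rho = −0.943 (exact permutation p = 0.0167, adjusted p = 0.375), and r = −0.719 without the 2 libraries farthest from the median of NCOA4. The other pairs with an unadjusted p of r under 0.05 were TFR2 and STEAP3 (r = −0.832), FTH1 and STEAP3 (r = −0.864), FTH1 and IREB2 (r = −0.882), and FTL and SLC11A2 (r = −0.861). Without the 2 libraries farthest from the median of the first gene these were −0.159, −0.874, −0.594 and −0.791, so that of TFR2 and STEAP3 rested on those libraries. In all, 7 of the 45 pairs had an unadjusted p of r under 0.05, and 0 had an adjusted p-value under 0.05 for r or for rho, so these relations failed the correction. Among the 6314 genes averaging at least 10 FPKM, those with the highest r with TFRC were DHX15 (r = 0.9969), BUB1 (0.9918), CAMK2G (0.9913), OTUD6B (0.9875) and CPSF6 (0.9868). Those with the highest r with FTH1 were USP11 (r = 0.9962), TM7SF2 (0.9954), SERPINH1 (0.9920), CAPZB (0.9866) and PHB2 (0.9856). These genes were picked for their r from many genes over 6 libraries, so that high values follow from the choice and are a description. DHX15, an RNA helicase of the spliceosome, was at 75.3 and 74.9 FPKM in sh-luc unnumbered and sh-IUR1 r2 and at 61.7 FPKM in sh-IUR1 r1.

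Among other genes of iron handling, 30 of the 42 listed were in the table and tested. In limma 0 passed the threshold and 2 had an unadjusted p-value under 0.05, SNX3 and HFE. The groups did not overlap for 8 of the 30 (26.7%), 5 higher and 3 lower in sh-IUR1, beside 7.07% of all genes tested, and the median log2 fold change was 0.036. Without sh-luc unnumbered no further gene of the list was without overlap, while the share of all genes was 12.6%, and the median log2 fold change of the list was 0.013. SNX3, a sorting protein that returns the transferrin receptor to the cell surface, was at 87.4, 79.5 and 79.7 FPKM in sh-luc and at 74.1, 74.4 and 75.1 FPKM in sh-IUR1, every one of them below the controls. Its log2 fold change was −0.14 (SE 0.059, adjusted p = 0.930 in limma), and −0.093 without sh-luc unnumbered, the highest control. HFE, a partner of the transferrin receptors, was low in all libraries, at 1.25, 1.37 and 1.41 FPKM in sh-luc and 1.77, 1.58 and 1.83 FPKM in sh-IUR1. Every sh-IUR1 library was higher, with a log2 fold change of 0.22 (SE 0.079, adjusted p = 0.930 in limma; 0.19 without sh-luc unnumbered) on a scale that understates changes at such levels. CD63, a tetraspanin of vesicles that can carry ferritin out of cells, was at 394, 359 and 373 FPKM in sh-luc and at 346, 350.1 and 348 FPKM in sh-IUR1, again with no overlap, and its log2 fold change was −0.11 (limma adjusted p = 0.930), and −0.072 without sh-luc unnumbered. PCBP2, a relative of PCBP1, and SKP1, a subunit of the ligase that degrades IRP2, overlapped between the groups, with log2 fold changes of 0.057 and −0.086. Without sh-luc unnumbered these were 0.0055 and −0.014, and without sh-IUR1 r1 they were 0.023 and −0.027.

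Of the 7 other genes whose mRNA has a described iron-responsive element, 6 were tested. In limma 0 passed the threshold, 0 had an unadjusted p-value under 0.05, and 0 were without overlap, with a median log2 fold change of 0.05 (0.058 without sh-luc unnumbered, 0.085 without sh-luc r1 and 0.015 without sh-luc r2). SLC40A1, which is also in the list of other iron handling genes, encodes ferroportin, the iron exporter, and has 1 match in its 5′ UTR. It was at 19.4, 14.1 and 13.5 FPKM in sh-luc (unnumbered, r1 and r2) and at 15.2, 12.02 and 16.9 FPKM in sh-IUR1. As for TFRC, sh-luc unnumbered and sh-IUR1 r2 were the highest libraries and sh-IUR1 r1 the lowest, and the log2 fold change was −0.08 (SE 0.15, limma adjusted p = 0.949). Its sign rested on single libraries, with 0.073 without sh-luc unnumbered, 0.048 without sh-IUR1 r1 and −0.18 without sh-IUR1 r2. CDC42BPA and CDC14A had log2 fold changes of 0.064 and 0.038, with overlapping groups. These were 0.098 and 0.051 without sh-luc unnumbered, and 0.01 and −0.024 without sh-luc r2.

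All 31 listed genes of iron-sulfur cluster assembly, a major use of iron beside heme, were tested. In limma 0 passed the threshold, 0 had an unadjusted p-value under 0.05, and 3 (9.68%) were without overlap, a share near the 7.07% of all genes tested. The median log2 fold change was −0.01, with −0.027 without sh-IUR1 r1 and 0.0062 without sh-IUR1 r2. It was −0.0039 without sh-luc unnumbered and −0.026 with median-ratio scaling. BOLA2 and BOLA2B, near-identical copies, were listed with the same values and are not independent. The most abundant genes were HSPA9, the mitochondrial chaperone of the pathway (234 ± 11.2 FPKM in sh-luc and 240.2 ± 13.5 FPKM in sh-IUR1, SD, n = 3), NDUFAB1, GLRX5 and BOLA3. GLRX5, a glutaredoxin needed for cluster transfer and heme synthesis in erythroid cells, varied by 1.96% over the 6 libraries. Those without overlap were IBA57 (log2 fold change 0.11, and 0.068 without sh-IUR1 r1), NUBP2 (−0.07, and −0.03 without sh-luc r2) and LYRM4 (−0.038, and −0.021 without sh-luc unnumbered), with limma adjusted p-values of 0.930 to 0.940.

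**Figure D5:**
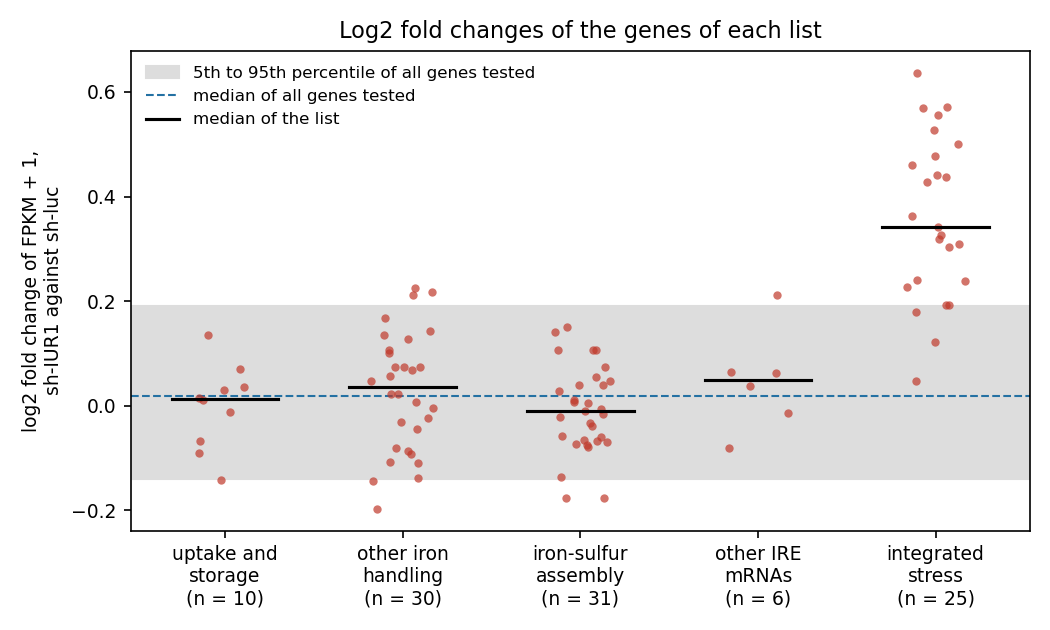
Log2 fold change of FPKM + 1 in sh-IUR1 against sh-luc (y axis) for each tested gene of 5 lists, with points spread sideways for legibility. Genes shared by lists, such as SLC40A1, are drawn in each. Black bars are list medians, the dashed line is the median of all genes tested and the grey band their 5th to 95th percentile. The iron lists have medians from −0.01 to 0.05, and the stress list has a median of 0.34, which is 0.055 without sh-luc unnumbered.

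Erythroid genes that mark K562 cells were present, with 14 of 14 in the table. Mean levels were 2915 FPKM for HBG2, 1297 for HBA1, 1271 for HBG1 and 711 for HBZ, globins whose near-identical copies make the split between HBG1 and HBG2 uncertain. In limma 0 of the 14 passed the threshold and 0 had an unadjusted p-value under 0.05, the log2 fold change was below 0 for 13 (median −0.058), and 1 (HBE1, 7.14% of the list) was without overlap, beside 7.07% of all genes tested. Without sh-luc unnumbered it was below 0 for 11 of the 14 (median −0.033), and with other libraries left out for 10 to 14 (median −0.1 to −0.029). HBG2 was highest in sh-luc unnumbered, at 3565 FPKM, and between 2559 and 2969 FPKM in the other libraries. Defining markers of other cells were low, with CD3E at 0.08 FPKM and COL1A1 at 0.267 FPKM. LYZ (113.6 FPKM), CD68 (9.77 FPKM), KRT8 (360.8 FPKM), KRT18 (293 FPKM), KRT19 (63.4 FPKM) and EPCAM (41.1 FPKM) were expressed in both groups, and 0 of the tested markers of other cells passed the threshold in limma or had an unadjusted p-value under 0.05.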

How the data were processed

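The files the authors made rest on hg38 alignments of cleaned Illumina reads. The methods name RPKM, calculated with SAMtools 0.1.19, whereas the columns that the authors deposited are named FPKM, with 2 decimals. Aligner, annotation and strand setting are not given in the sources used here. The deposited table was prepared for a clustering into 9 groups. The standard deviation over libraries is under 0.05 FPKM for 0 of its 12486 genes, so genes under this absolute spread are outside all counts. Expressed genes with a small relative spread, such as GLRX5 (coefficient of variation 1.96%), are among its genes. The other 6 columns, a z-score for each library, the cluster number and its membership were not used.

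Genes were matched from Entrez identifiers to symbols through RefSeq (12363 of 12486). The members and lists were chosen with earlier results of these data known. log2(FPKM + 1) of the 12276 genes averaging 0.1 FPKM or more was fitted with limma 3.58.1 (lmFit, eBayes with a trend) in R 4.3.3, with Benjamini-Hochberg adjustment over all genes. Fold changes on this scale understate those of low genes. The step was run on simulated data with an equal spread for every gene, independent noise and planted changes larger than those of the iron genes. The real libraries share deviations and genes differ in spread, so that run does not show how well small differences would be found here. Exact permutation tests over libraries were two-sided, for single levels and ratios, and over pairings for correlations. Of each list, the 4 most abundant genes and up to 3 without overlap and with the smallest p were named, and some items that this rule or the sequence search gave are not reported here. The lists were other iron handling, other mRNAs with iron-responsive elements, iron-sulfur cluster assembly, integrated stress response, erythroid genes and markers of other cells. Some lists share genes, such as SLC40A1, so their counts and medians are not independent. Steps in 130 low values of single-exon genes did not give whole fragments (30.8% within 0.1 of a fragment at best, where an even spread gives 20%), so depth is unknown. FPKM of the listed genes summed to between 579820 and 606240 per library, which are not depths.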

Additional observations from a re-analysis of the deposited data

How the results depend on the processing

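Under 13 alternatives (each library left out, a replicate block, quantile normalization, median-ratio scaling, no trend in eBayes, pseudocount 0.1, and a filter at 1 FPKM or none), 0 genes passed the threshold in limma. Of 130 log2 fold changes of the 10 genes, 117 kept their sign and 13 did not, with adjusted p-values from 0.667 to 1.0. TFR2, STEAP3, NCOA4 and PCBP1 kept their sign throughout, with 0.092 to 0.17, −0.23 to −0.058, 0.046 to 0.084 and −0.098 to −0.05 when a library was left out. Quantile normalization gave 0.012 for FTL, −0.011 for SLC11A2 and −0.014 for IREB2, and median-ratio scaling −0.0014 for SLC11A2 and −0.0036 for IREB2. Values that moved by over 1.5 times with the same sign were, with quantile normalization, 0.079 for FTH1, −0.03 for PCBP1, 0.02 for ACO1, −0.072 for CD63 and 0.06 for IBA57, with median-ratio scaling 0.019 for FTH1, −0.029 for FTL and 0.016 for ACO1, and with pseudocount 0.1 0.34 for HFE. With each library left out in turn, log2 fold changes ran from −0.25 to 0.088 (TFRC), −0.018 to 0.091 (FTH1), −0.053 to 0.0087 (FTL), −0.0025 to 0.034 (SLC11A2), −0.044 to 0.086 (ACO1) and −0.056 to 0.074 (IREB2); the cause was not tested. Genes at an unadjusted p-value under 0.05 numbered 158 to 856 with a library left out. With the library label as a replicate block this number was 533 and 0 genes passed the threshold. Deviations of libraries with the same label correlated at 0.044 (unnumbered), 0.39 (r1) and −0.34 (r2). With so few libraries in each group, these values cannot decide whether libraries with the same label were prepared together. The median of the other iron handling genes ran from 0.0049 (quantile normalization) to 0.07 (without sh-luc r1). Unknown depth limits what can be said of low genes such as HFE.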
